A study of Mus musculus with 8 samples.

Results

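Propionic acid is a short-chain fatty acid, and the genes described here encode proteins that sense or carry such acids and their relatives. The receptors are the free fatty acid receptors Ffar2, Ffar3 and Ffar4 and the hydroxycarboxylic acid receptors Hcar1 and Hcar2. The carriers are the sodium-coupled transporter Slc5a8 and the proton-linked transporters Slc16a1, Slc16a7 and Slc16a3. Bsg is the partner protein of Slc16a1 and Slc16a3. The 10 genes were chosen by name. Of these, 9 had a row among the 25378 genes of the FPKM table (a level scaled to gene length and library depth), and Ffar3 was not analysed here. Lesional back skin came from wild type female C57BL/6 mice, aged 6 weeks and housed under specific pathogen-free conditions. In the propionic acid group, 4 mice received 1 mM propionic acid on the skin 1 h after MC903. In the control group, 4 mice received a control application whose content the labels do not give. Both groups carried the same MC903 treatment, 5 nmol on the back for 10 days, with skin taken on day 11, so no skin free of MC903 was compared. MC903, also named calcipotriol, is an analog of vitamin D that causes dermatitis in mouse skin, and whole skin pieces hold epidermis, dermis, fat and muscle. The replicates are called biological in the labels and are taken to be separate mice.

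Short-chain fatty acids act on cells in several ways. At the cell surface they bind receptors coupled to G proteins: Ffar2 and Ffar3 respond to acetate, propionate and butyrate, and Hcar2 to butyrate, the ketone body beta-hydroxybutyrate and niacin. Ffar4 is a receptor for long-chain fatty acids and Hcar1 one for lactate, so that these members of the set are relatives rather than receptors of propionate. Inside, the acids arrive by diffusion or through carriers. Slc5a8 moves monocarboxylates together with sodium, and Slc16a1 (MCT1), Slc16a7 (MCT2) and Slc16a3 (MCT4) move lactate, pyruvate and related acids together with a proton. Slc16a1 and Slc16a3 need basigin (Bsg) to reach the cell surface. Slc16a3 serves mostly in the export of lactate from glycolytic cells and is a known target of the hypoxia-inducible factors.

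None of the 9 genes differed detectably between propionic acid skin and control skin. Of the 9, 7 reached 1 FPKM in at least 4 libraries and were tested among 12598 genes, and 0 of these 7 passed an adjusted p of 0.05 in limma, where 0% of all tested genes passed. At an unadjusted p under 0.05 the count was 0 of 7 members, against 6.29% of all tested genes (792 genes). The values of both groups overlapped for all 9 genes, and across the tested genes the groups did not overlap for 3.16%. On recovered reads with limma-voom, 0 genes passed and 749 had an unadjusted p under 0.05. The median log2 fold change of the 7 members was 0.004 and that of all tested genes 0.006. The order of the mean levels was the same in both groups except for Slc16a7 and Hcar1, the lowest pair, and some of the genes differed widely between mice of 1 group.

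Hcar1 varied most between mice, but its promoter sequence is not shown. The promoter sequences of 3 other members are shown first, because Slc16a3 and Ffar2 also varied widely while Slc16a1 did not. Each is the stretch of 250 bases before the RefSeq start in GRCm38.p6 (the same assembly as mm10), 5′ to 3′ on the gene's strand, and 6 of the 9 genes had such a window. Capitals in Slc16a3 and Slc16a1 mark ACGTG or GCGTG on either strand, the core letters of the site that hypoxia-inducible factors bind. In Ffar2 they mark the same cores and also AGGTCA on either strand, a half-site of nuclear receptors, PPAR among them, called the PPAR half-site here. The Slc16a3 window begins within the GENCODE gene, because RefSeq places the start further downstream. Slc16a3 lies at chr11:120948817-120949066 (plus strand), Slc16a1 at chr3:104638414-104638663 (plus strand) and Ffar2 at chr7:30823776-30824025 (minus strand).
Slc16a3: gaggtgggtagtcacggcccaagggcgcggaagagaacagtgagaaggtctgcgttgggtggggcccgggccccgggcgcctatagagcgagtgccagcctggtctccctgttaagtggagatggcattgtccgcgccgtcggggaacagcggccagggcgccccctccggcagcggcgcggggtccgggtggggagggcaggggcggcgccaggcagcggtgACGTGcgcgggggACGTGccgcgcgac
Slc16a1: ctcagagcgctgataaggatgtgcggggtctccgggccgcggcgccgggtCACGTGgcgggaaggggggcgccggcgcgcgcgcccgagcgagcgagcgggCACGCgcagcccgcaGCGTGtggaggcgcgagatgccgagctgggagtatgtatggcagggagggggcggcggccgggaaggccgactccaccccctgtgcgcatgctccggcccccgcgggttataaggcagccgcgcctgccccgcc
Ffar2: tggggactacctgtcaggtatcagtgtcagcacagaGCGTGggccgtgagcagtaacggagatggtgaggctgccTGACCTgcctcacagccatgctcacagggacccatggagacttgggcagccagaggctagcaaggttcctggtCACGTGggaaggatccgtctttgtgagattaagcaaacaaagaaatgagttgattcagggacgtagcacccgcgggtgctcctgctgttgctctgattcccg

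The Slc16a3 window held 2 stretches with the hypoxia core, and the Slc16a1 window held 3, counting a stretch matched on both strands once. The Ffar2 window held 2 hypoxia cores and 1 PPAR half-site. The core was present in 38.6% and the half-site in 14.0% of 32851 windows of the same length. These letters describe the windows and show no binding. Ffar2 has 3 further RefSeq starts, whose windows held 0 hypoxia cores. The PPAR half-site was present in 2 of these 3 windows, which overlap and hold the same single site. The windows of Hcar1 and Ffar4 held neither motif, and that of Slc5a8 held 1 hypoxia core.

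By FPKM, a level per gene length, the order over the 8 libraries was Bsg, Slc16a1, Hcar2, Slc5a8, Slc16a3, Ffar2, Ffar4, Slc16a7 and Hcar1. Bsg averaged 203.3 FPKM, Slc16a1 20.8, Hcar2 19.1, Slc5a8 10.4, Slc16a3 7.01, Ffar2 1.67, Ffar4 1.61, Slc16a7 0.890 and Hcar1 0.750 FPKM. Among the 8 pairs of neighbours in this order, the first gene was above the second in 8 of 8 libraries for Bsg over Slc16a1, Hcar2 over Slc5a8, Slc16a3 over Ffar2 and Ffar4 over Slc16a7. In these 4 pairs the exact sign-flip test within libraries gave p = 0.00781, the smallest it can give, and 0.0156 after adjustment over the 8 pairs. The other 4 pairs did not differ beyond their spread. Slc16a1 was above Hcar2 in 5 of 8 libraries, Slc5a8 above Slc16a3 in 6, Ffar2 above Ffar4 in 4 and Slc16a7 above Hcar1 in 5 (adjusted exact sign-flip p from 0.167 to 0.703). The highest receptor was thus Hcar2. The spread between mice mostly rose as the level fell. The coefficient of variation over the 8 libraries was 6.92% for Bsg, 8.17% for Slc16a1 and 15.1% for Hcar2. It was 39.9% for Slc5a8, 48.5% for Slc16a3, 69.0% for Ffar2 and 94.6% for Hcar1. Ffar4 (41.3%) and Slc16a7 (31.5%) broke this order, with less spread than Slc16a3 and Ffar2 at higher levels.

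**Figure D1:**
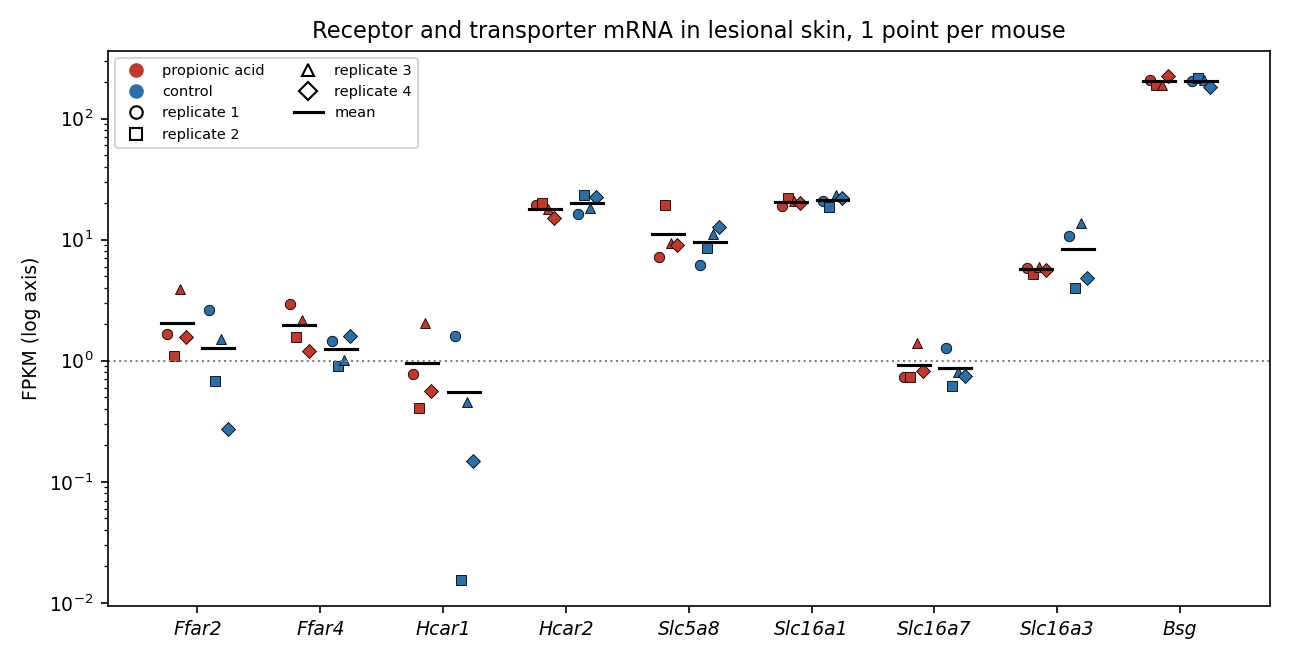
FPKM of the 9 genes on a log axis, 1 point per mouse, propionic acid (red) left of control (blue), with the group mean as a bar and a dotted line at 1 FPKM. Bsg lies near 203.3 FPKM in both groups, Hcar2 and Slc16a1 near 19.1 and 20.8 FPKM, and Hcar1 spreads from 0.0153 to 2.05 FPKM.

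Library depth was close to equal: recovered totals lay between 39034193 and 40194111 reads, FPKM values summed to 486414 to 566669, and the median over tested genes was 1224 reads a library. The keratinocyte marker Krt14 and the fibroblast marker Col1a1 were high in every library, which matches the tissue label. Krt14 had 3405 to 4741 FPKM in propionic acid skin and 3175 to 5619 in control skin. Col1a1 had 176 to 450 FPKM in propionic acid skin and 221 to 630 in control skin. Krt10, a further keratinocyte marker, varied more between mice, with 90.6 to 426 FPKM in propionic acid skin and 30.6 to 583 in control skin. The first principal component held 38.9% of the variance, and control replicates 1 and 3 lay at its far end (-31.83 and -26.69), against -11.76 to 26.04 for propionic acid libraries and 0.93 and 16.32 for the other controls.

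Ffar2, the receptor of acetate and propionate, is found on chromosome 7 (30818348 to 30823775, minus strand). It had 1.67, 1.10, 3.91 and 1.58 FPKM in propionic acid skin, against 2.62, 0.675, 1.5 and 0.272 FPKM in control skin. Propionic acid replicate 3 and control replicate 1 were the highest, control replicates 2 and 4 the lowest, and the groups overlapped. Behind these values stood 126 to 452 reads in propionic acid libraries and 31 to 307 in control libraries. The means were 2.07 ± 1.26 FPKM in propionic acid skin and 1.27 ± 1.04 FPKM in control skin (SD, n = 4 each), a log2(FPKM + 1) difference of 0.47 with a standard error (SE) of 0.35 and a 95% confidence interval of -0.32 to 1.26 (limma adjusted p = 0.865). Without control replicates 1 and 3 the difference was 0.99. On the recovered reads, which carry no pseudocount of 1 FPKM, it was 0.98 with all mice.

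Ffar4, the receptor of long-chain fatty acids, is on chromosome 19 (38097071 to 38114263). It had 2.92, 1.57, 2.17 and 1.21 FPKM in propionic acid skin and 1.45, 0.912, 1.01 and 1.60 FPKM in control skin. The 2 highest libraries were from propionic acid skin and the 2 lowest from control skin, but the groups overlapped in between. The means were 1.97 ± 0.748 FPKM in propionic acid skin and 1.24 ± 0.333 FPKM in control skin. Its log2(FPKM + 1) difference of 0.38 with an SE of 0.19 had the smallest unadjusted p among the members (0.0722) and a limma adjusted p of 0.815. Its interval ran from -0.04 to 0.81. The difference was 0.62 on the recovered reads and 0.24 without propionic acid replicate 1, the highest library (limma adjusted p = 0.854 and 1).

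Hcar1, the lactate receptor, and Hcar2 lie near each other on chromosome 5, Hcar1 at 123876736 to 123880020 and Hcar2 at 123863570 to 123865499, both on the minus strand. Hcar1 had 0.780, 0.406, 2.05 and 0.563 FPKM in propionic acid skin and 1.59, 0.0153, 0.453 and 0.149 FPKM in control skin. The read counts ranged from 52 to 265 in propionic acid skin and from 2 to 208 in control skin, the 2 reads being in control replicate 2. As for Ffar2, propionic acid replicate 3 and control replicate 1 stood highest, and control replicates 2 and 4 lowest. Only 2 libraries reached 1 FPKM, so Hcar1 was under the filter. The means were 0.949 ± 0.748 FPKM in propionic acid skin and 0.551 ± 0.714 FPKM in control skin, and the exact 2-sided permutation test of the log2(FPKM + 1) difference of 0.36 gave p = 0.4, where the smallest possible is 0.0286. With a pseudocount of 0.1 in place of 1 the difference was 1.14 (exact permutation p = 0.257), so its size depends on the scale. Without control replicates 1 and 3 it was 0.78 (exact permutation p = 0.133, the smallest possible with those mice left out). Without propionic acid replicate 3 the difference was 0.12.

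Hcar2, the receptor of butyrate, beta-hydroxybutyrate and niacin, had a narrower range between mice than the other receptors. It had 19.2, 20.1, 17.9 and 15.0 FPKM in propionic acid skin and 16.4, 23.5, 18.1 and 22.5 FPKM in control skin. Its 2 highest values came from control replicates 2 and 4, the mice with the lowest Ffar2 and Hcar1. The means were 18.0 ± 2.22 FPKM in propionic acid skin and 20.1 ± 3.40 FPKM in control skin, with a log2(FPKM + 1) difference of -0.14 and an SE of 0.14 (limma adjusted p = 0.887). As a fold, the 95% interval reached from 0.728 to 1.13, and the groups overlapped. The log2 ratio of Hcar2 to Hcar1 (pseudocount 1) was 3.35 ± 0.532 in propionic acid skin and 3.85 ± 0.823 in control skin, and the difference of -0.50 had an exact permutation p of 0.343. That difference was -1.29 with a pseudocount of 0.1 and -1.12 without control replicates 1 and 3 (exact permutation p = 0.286 and 0.133). The exact permutation p of 0.133 is the smallest possible with those 2 mice left out. Without those 2 mice the difference of Hcar2 alone was -0.34 (limma adjusted p = 1).

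**Figure D2:**
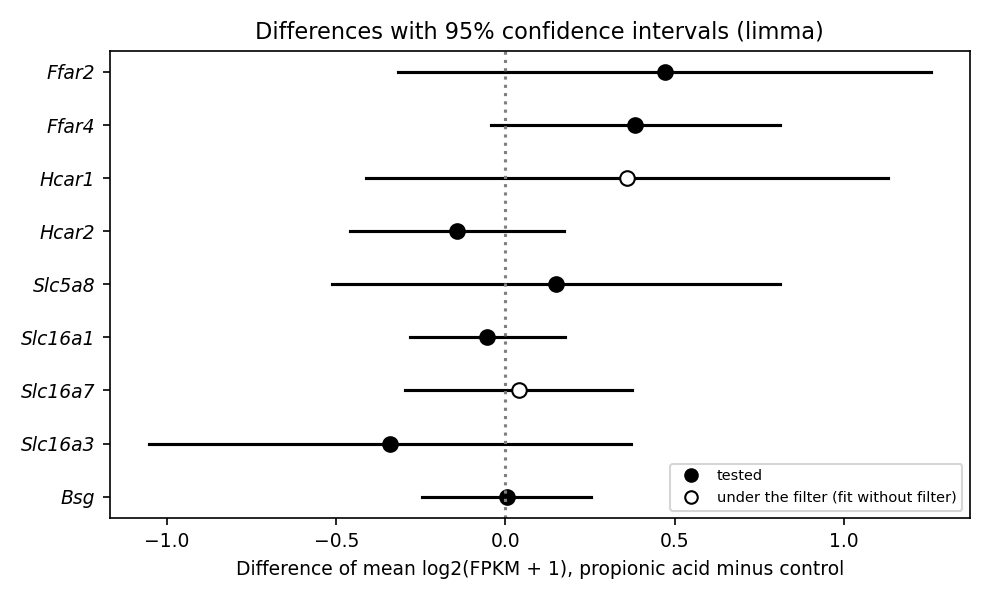
Difference of mean log2(FPKM + 1), propionic acid minus control, for each gene (point) with its 95% confidence interval from limma (line). Open points mark Hcar1 and Slc16a7, which were under the filter and whose intervals come from the fit without a filter. Every interval includes 0, and those of Bsg and Slc16a1 are the narrowest.

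Slc5a8, the sodium-coupled transporter of short-chain fatty acids and lactate, is on chromosome 10 (88885992 to 88929515). It had 7.20, 19.3, 9.31 and 9.01 FPKM in propionic acid skin, against 6.15, 8.51, 11.1 and 12.8 FPKM in control skin. Propionic acid replicate 2 stood above all other mice, while the other 3 of its group lay within the range of the controls. The means were 11.2 ± 5.49 FPKM in propionic acid skin and 9.64 ± 2.93 FPKM in control skin, a log2(FPKM + 1) difference of 0.15 with an SE of 0.29 (limma adjusted p = 0.943). The sign turned when propionic acid replicate 2 (-0.13) or control replicate 1 (-0.03) was left out.

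Slc16a1, the widely expressed proton-linked transporter of lactate, pyruvate and short-chain acids, is on chromosome 3 (104638668 to 104658462). It had 18.8, 22.0, 20.8 and 19.9 FPKM in propionic acid skin and 20.9, 18.5, 23.4 and 22.1 FPKM in control skin. All mice were within a 1.27-fold range, and the groups overlapped. The means were 20.4 ± 1.37 FPKM in propionic acid skin and 21.2 ± 2.09 FPKM in control skin, with a fold interval of 0.822 to 1.13 (limma adjusted p = 0.943). Short genes within its introns on the same strand are annotated, so some of its reads may belong to them.

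Slc16a7, the high-affinity form, is on chromosome 10 (125219270 to 125389465, minus strand) and has an annotated antisense gene within it, whose reads cannot be told apart without the strand setting. It had 0.733, 0.727, 1.39 and 0.822 FPKM in propionic acid skin and 1.28, 0.621, 0.807 and 0.748 FPKM in control skin. Again propionic acid replicate 3 and control replicate 1 were the highest, and they alone reached 1 FPKM, so the gene was under the filter. The means were 0.917 ± 0.315 FPKM in propionic acid skin and 0.864 ± 0.287 FPKM in control skin, and the difference of 0.04 (log2) had an exact permutation p of 0.686. Leaving out propionic acid replicate 3 (-0.07) or control replicate 2 (-0.02) turned its sign.

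Slc16a3, the lactate exporter of glycolytic cells, is on chromosome 11 (120948480 to 120960868). It had 5.83, 5.24, 5.97 and 5.65 FPKM in propionic acid skin and 10.8, 3.99, 13.7 and 4.85 FPKM in control skin. The propionic acid mice were nearly alike, whereas control replicates 1 and 3 were high and control replicates 2 and 4 were below every propionic acid mouse. The means were 5.67 ± 0.313 FPKM in propionic acid skin and 8.35 ± 4.70 FPKM in control skin, with a log2(FPKM + 1) difference of -0.34 and an SE of 0.32 (limma adjusted p = 0.886). Without control replicates 1 and 3 the sign turned, with a difference of 0.30 (limma adjusted p = 1), and without control replicate 3 alone it was -0.07. The log2 ratio of Slc16a3 to Slc16a1 was -1.84 ± 0.162 in propionic acid skin and -1.53 ± 0.777 in control skin, and the difference of -0.31 had an exact permutation p of 0.457. Without control replicates 1 and 3 this ratio differed by 0.36 (exact permutation p = 0.133, the smallest possible with those mice left out).

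Bsg, the immunoglobulin-family protein that carries Slc16a1 and Slc16a3 to the membrane, is on chromosome 10 (79704491 to 79711969). It had 208, 191, 191 and 225 FPKM in propionic acid skin and 204, 216, 209 and 183 FPKM in control skin. These values mixed freely between groups, with 12564 to 15872 reads per library. The means were 203.6 ± 16.3 FPKM in propionic acid skin and 203.0 ± 14.0 FPKM in control skin, and the fold interval ran from 0.843 to 1.19 (limma adjusted p = 0.999). Bsg was above Slc16a1 by a geometric mean of 9.78-fold.

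Ffar2 and Hcar1 ranked the mice in nearly the same order. On log2(FPKM + 1) over the 8 mice, Pearson's r was 0.94 (permutation p = 6.70e-04, exact) and Spearman's rho 0.98 (exact permutation p = 3.97e-04). Over the 207 relations computed among members, marker lists and pathway lists, the adjusted permutation p values were 0.11 and 0.0821, so neither passed a threshold of 0.05. Without the 2 mice farthest from the median of Ffar2, r was 0.98, and groups of 4 are too few for a value within each group. Slc16a7 gave r = 0.93 with Hcar1 (rho = 0.81, exact permutation p = 0.00218 and 0.0218, adjusted 0.151 and 0.347), which was 0.64 without the 2 farthest mice.

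Fat-cell markers were high in some of the same mice, and so were other lists. Propionic acid replicate 3 and control replicate 1 were the 2 highest on the fibroblast list (mean log2 values of 8.14 and 8.27). The same held for the list of signalling partners of the receptors (3.41 and 3.40). All 15 listed adipocyte markers had a row, none was at 0 in all mice, and their summed level was 1995 to 3744 FPKM in propionic acid skin and 1811 to 2820 FPKM in control skin. Of the 15, 13 had a higher and 2 a lower mean log2 value in propionic acid skin (median log2 fold change 0.38). In limma 8 had an unadjusted p under 0.05, against 6.29% of all tested genes, and 0 passed the adjusted threshold. Plin1, a lipid droplet coat protein of fat cells, had 17.2, 11.0, 57.2 and 6.49 FPKM in propionic acid skin and 42.7, 6.76, 13.4 and 5.86 FPKM in control skin, again with propionic acid replicate 3 and control replicate 1 on top. Adipoq, the adipocyte hormone adiponectin, had 124, 74.1, 211 and 134 FPKM in propionic acid skin and 123, 53.5, 76.5 and 61.1 FPKM in control skin. Leptin (Lep) had 5.66, 6.09, 9.73 and 1.90 FPKM in propionic acid skin and 2.43, 0.00765, 0.138 and 0.0471 FPKM in control skin. In bulk skin, fewer cells of a type and less RNA per cell cannot be told apart, and the part of fat content in the values of Hcar1, Ffar2 and Slc16a7 was not tested.

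**Figure D3:**
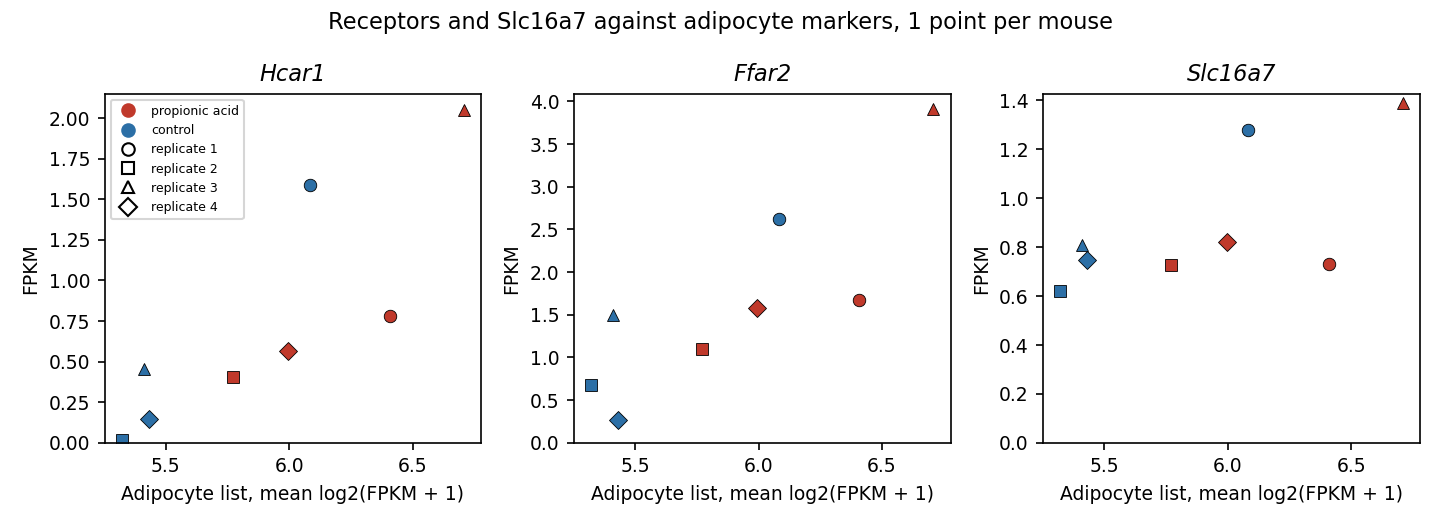
FPKM of Hcar1, Ffar2 and Slc16a7 (vertical axes) against the mean log2(FPKM + 1) of the 15 adipocyte markers (horizontal axes), 1 point per mouse, propionic acid in red and control in blue. Propionic acid replicate 3 is at the top right in all 3 panels and control replicate 1 is the next highest in each, although propionic acid replicate 1 had more of the markers.

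Against the mean log2 value of the adipocyte list, r was 0.86 for Hcar1 (rho = 0.90, exact permutation p = 0.00625 and 0.00456, adjusted 0.216 and 0.315). For Ffar2 it was 0.82 (rho = 0.86, exact permutation p = 0.0124 and 0.0107, adjusted 0.234 and 0.317), and for Ffar4 0.78 (rho = 0.76, exact permutation p = 0.0225 and 0.0368, adjusted 0.281 and 0.448). These were 0.67, 0.63 and 0.68 without the 2 mice farthest from the median of the list. For Slc16a7 r was 0.68 (rho = 0.62, exact permutation p = 0.0676 and 0.115), and 0.24 without the 2 farthest mice, so that relation rests on those mice. Its r was higher with the fibroblast list (0.77, exact permutation p = 0.0297, adjusted 0.292) and with the list of other metabolite receptors (0.94, exact permutation p = 0.00107, adjusted 0.11). Without the 2 mice farthest on each list these were -0.29 and 0.78. Hcar2 differed in sign with the adipocyte list, with r = -0.53 (rho = -0.60, exact permutation p = 0.182 and 0.132). With the keratinocyte list Hcar2 gave r = 0.82 (rho = 0.81, exact permutation p = 0.0151 and 0.0218, adjusted 0.241 and 0.347), which was 0.89 without the 2 farthest mice. With the glycolysis and hypoxia list Hcar2 gave r = -0.89 (rho = -0.81, exact permutation p = 0.00456 and 0.0218, adjusted 0.189 and 0.347), which was -0.95 without the 2 farthest mice. Neutrophils, which are known to carry Ffar2 and Hcar2, had 14 listed markers, of which none was at 0 in all mice and which summed to 109 to 567 FPKM in propionic acid skin and 167 to 548 FPKM in control skin. Their list gave r = 0.28 with Ffar2 (rho = 0.29, exact permutation p = 0.491 and 0.501) and r = -0.12 with Hcar2 (rho = -0.05, exact permutation p = 0.767 and 0.935). No relation passed after adjustment.

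The high Slc16a3 values of control replicates 1 and 3 were set beside glycolysis genes. Because its values fall apart into 2 high control mice and the others, no pooled correlation is given. The relation is among the 207 computed and did not pass after adjustment (exact permutation, adjusted p = 0.223 for Pearson's r and 0.317 for Spearman's rho). The mean log2 value of 26 glycolysis and hypoxia genes was 5.58, 5.59, 5.65 and 5.76 in propionic acid replicates 1 to 4 and 5.80, 5.37, 5.83 and 5.44 in control replicates 1 to 4. Control replicates 1 and 3 were thus the highest on this list as on Slc16a3, and control replicates 2 and 4 the lowest on both. The same mice were highest on the macrophage list, whose 12 markers summed to 942 to 1739 FPKM in propionic acid skin and 1286 to 2348 FPKM in control skin, with 2348 and 2153 in control replicates 1 and 3. These 2 mice were also the highest on the T cell list (mean log2 values of 2.629 and 2.626) and on a list of basigin partners (5.88 and 5.71). All 12 macrophage markers had a lower mean log2 value in propionic acid skin (median log2 fold change -0.42). In limma 3 had an unadjusted p under 0.05, against 6.29% of all tested genes, and 0 passed the adjusted threshold. The part of macrophages or T cells in the Slc16a3 values was not tested.

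**Figure D4:**
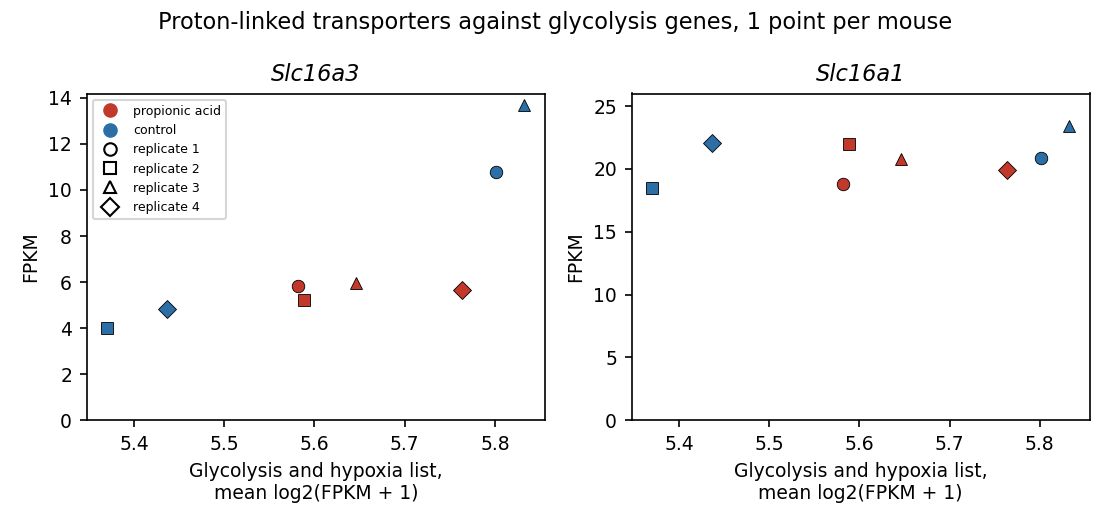
FPKM of Slc16a3 and Slc16a1 (vertical axes, from 0) against the mean log2(FPKM + 1) of 26 glycolysis and hypoxia genes (horizontal axes), 1 point per mouse. Control replicates 1 and 3 stand apart on Slc16a3, at 10.8 and 13.7 FPKM, while Slc16a1 stays between 18.5 and 23.4 FPKM in all mice.

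The genes whose log2(FPKM + 1) was most like that of a tested member over the 8 libraries, among 12118 named genes, are given as a description. They were Ccdc80 (r = 0.98) and Mfng (0.97) for Ffar2, and Fbxl4 (0.94) and Trarg1 (0.94) for Ffar4. Trarg1 is a regulator of the glucose transporter GLUT4 in fat cells. For Hcar2 they were Mill1 and Camsap3 (both 0.98), for Slc5a8 Mafg and Pard3 (both 0.97), for Slc16a1 Cdk6 (0.98) and Sbno2 (0.97), and for Bsg Ccdc22 (0.98) and Mrpl45 (0.97). For Slc16a3 they were Pgap6 and Tlr13, with no r given because control replicates 1 and 3 stood apart in both. Pard3 is a polarity protein of epithelia and Tlr13 a receptor of myeloid cells for bacterial RNA. All libraries enter each of these values, and with this many genes compared high values arise readily.

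Other receptors of short-chain acids and metabolites ranged from no reads to a few FPKM. Ffar1, a receptor of longer fatty acids, was listed at 0 in all 4 propionic acid libraries and had 1 read in each of 2 control libraries. Olfr78, an olfactory receptor that responds to acetate and propionate in mice, had 0.0643 to 0.368 FPKM in propionic acid skin and 0.0860 to 0.228 FPKM in control skin, and Olfr558, a related receptor, had 0.441 to 1.24 FPKM in propionic acid skin and 0.595 to 1.93 FPKM in control skin. These 3 genes were named after their values were seen. Of 12 listed receptors 8 had a row and 2 were tested, Gpr132 (2.55 ± 0.817 and 2.70 ± 0.765 FPKM in propionic acid and control skin) and Gpr35 (1.05 ± 0.237 FPKM in propionic acid and 1.10 ± 0.288 FPKM in control skin). Neither passed, with limma adjusted p of 0.967 and 0.974.

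In a list of other monocarboxylate carriers and their partners, among them the rest of the Slc16 family and the mitochondrial pyruvate carriers, 11 of 18 were tested, and 0 passed in either direction. The median log2 fold change was -0.10, with 4 higher and 7 lower. The smallest p values belonged to Slc16a14, an orphan member, with 3.16 ± 0.524 FPKM in propionic acid and 4.36 ± 0.124 in control skin (limma adjusted p = 0.587), and Slc16a10, a transporter of aromatic amino acids, with 1.97 ± 0.499 FPKM in propionic acid and 1.22 ± 0.162 FPKM in control skin (limma adjusted p = 0.724). In the list of signalling partners of these receptors, 23 of 28 were tested, 13 with a higher and 10 with a lower mean, and 0 passed. Gnai1, an inhibitory G protein subunit, had 21.3 ± 1.96 FPKM in propionic acid and 16.8 ± 1.35 FPKM in control skin (limma adjusted p = 0.587), and Grk5, a kinase that turns receptors off, 4.65 ± 0.602 FPKM in propionic acid and 3.63 ± 0.802 FPKM in control skin (limma adjusted p = 0.82).

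In the glycolysis and hypoxia list, 25 of 26 genes were tested, 10 higher and 15 lower, with a median log2 fold change of -0.07 and 0 past the threshold. Pfkm, the muscle form of phosphofructokinase, had 66.1 ± 8.72 FPKM in propionic acid skin and 37.0 ± 7.36 FPKM in control skin (limma adjusted p = 0.263). Vegfa, the angiogenic factor, had 17.2 ± 2.34 FPKM in propionic acid and 12.1 ± 3.38 FPKM in control skin (limma adjusted p = 0.741). Skeletal muscle markers summed to 4980 to 10362 FPKM in propionic acid skin and 4685 to 7389 FPKM in control skin, and none of the 16 listed was at 0 in all mice. Of 15 tested muscle markers, 11 were higher and 4 lower in propionic acid skin, with a median log2 fold change of 0.36. In limma 8 had an unadjusted p under 0.05, against 6.29% of all tested genes, and 0 passed the adjusted threshold. Myh4, a fast myosin heavy chain, had 121 to 377 FPKM in propionic acid skin and 9.37 to 50.1 FPKM in control skin (limma adjusted p = 0.0998), and Ckm, muscle creatine kinase, had 670 to 1443 FPKM in propionic acid skin and 371 to 610 FPKM in control skin (limma adjusted p = 0.488). Both were named after their values were seen. Neither overlapped between groups, as for Pfkm, and 3.16% of all tested genes did not overlap. Acta1, a further listed muscle marker, did overlap and had a lower mean log2 value in propionic acid skin. It had 927 to 2095 FPKM in propionic acid skin and 1219 to 1879 FPKM in control skin (limma adjusted p = 0.935). The part of muscle in the Pfkm values was not tested. Among 15 partners of basigin, all tested, 4 were higher and 11 lower, the median was -0.16, and 0 passed. Mmp14, a membrane metalloproteinase, had 142.5 ± 30.1 FPKM in propionic acid and 202.2 ± 38.9 FPKM in control skin (limma adjusted p = 0.732), and Cd44, the hyaluronan receptor, 37.5 ± 5.50 FPKM in propionic acid and 45.0 ± 5.94 FPKM in control skin (limma adjusted p = 0.828).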

How the data were processed

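Bulk RNA sequencing of 8 skin samples gave 1 deposited table with an FPKM value per gene and library, per the file headers. Per the submitters' processing notes, the authors used CASAVA, cutadapt and HISAT2 2.1.0 with build mm10, and TRIzol extraction of total RNA, per the labels' protocols. Not given in the sources used here were the counting program, the strand setting and the annotation. Within each gene the FPKM values were whole multiples of 1 step per library, so reads were recovered for all 25378 genes (tolerance 0.01 of a read, largest distance 0.00015). A gene whose reads share a divisor would come out too low.

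Values were taken as log2(FPKM + 1), which understates changes of low genes. Genes with 1 FPKM or more in at least 4 libraries were fitted with limma 3.58.1 (R 4.3.3) with intensity trend, robust moderation, 2-sided tests and Benjamini-Hochberg adjustment over all tested genes. The step was also run on simulated data, with the same spread for all genes and changes placed only in genes with many reads. That run does not cover members with few reads or a wide spread between mice. Genes under the filter, ratios and correlations have exact permutation tests (SciPy 1.17.1). Means are ± SD over 4 mice, and p-values measure the spread between these samples. Alternatives were the pseudocount, the filter, scaling, a replicate block, limma-voom and leaving out mice. The members and lists were chosen with earlier results of these data known. Further genes were named as the 2 tested members of each pathway list with the smallest p, and as the 2 genes most like each tested member. Positions are from GENCODE vM21 (GRCm38), and promoters from RefSeq (GRCm38.p6).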

Additional observations from a re-analysis of the deposited data

Results flagged for a closer look

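One value stood far from the others of its group. Slc16a7 in propionic acid replicate 3, at 1.39 FPKM, was apart from the other 3 mice of its group (0.733, 0.727 and 0.822 FPKM), with a gap of 0.856 of the group's range where Dixon's 95% critical value was exceeded. In total 18 groups of 4 values were looked at, and chance flags about 1 in 20. The same mouse had the highest Hcar1 and Ffar2 of all 8.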

How the results depend on the processing

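Across the alternatives, 0 members passed the threshold in any of them. Of 149 member values under alternatives, 137 kept their direction and 12 changed it. The count of genes called was 0, with a range of 0 to 2 when 1 mouse was left out (1 without control replicate 2 and 2 without control replicate 3). With the replicate block, the counts called were 0 genes and 0 members. Replicate numbers did not pair the mice: same-numbered mice had correlations of deviations of -0.319, -0.081, 0.2 and -0.117. Without control replicates 1 and 3 together, the differences turned to 0.009 for Slc16a1, 0.304 for Slc16a3 and -0.002 for Slc5a8, and the log2 ratio of Slc16a3 to Slc16a1 turned to 0.356, while Slc16a7 moved to 0.174 and Bsg to 0.029. Bsg, at 0.004, turned to -0.020 with median-of-ratios scaling and -0.005 with quantile normalization. With 1 mouse left out, the differences ranged from 0.218 to 0.734 for Ffar2, 0.239 to 0.515 for Ffar4, 0.123 to 0.64 for Hcar1, -0.231 to -0.062 for Hcar2, -0.594 to -0.074 for Slc16a3, -0.126 to 0.31 for Slc5a8, -0.07 to 0.14 for Slc16a7, -0.045 to 0.034 for Bsg, -0.542 to -0.061 for the ratio of Slc16a3 to Slc16a1 and -0.871 to -0.257 for that of Hcar2 to Hcar1. The cause of these turns and moves was not tested. The count of genes with an unadjusted p under 0.05, 792, was 1351 without a filter, 1546 with limma-voom and no filter (an alternative chosen after seeing the data), 492 without control replicates 1 and 3, and 441 to 1227 with 1 mouse left out (512 for propionic acid replicate 1, 441 for control replicate 3 and 1227 for control replicate 2). Its split of 513 higher and 279 lower became 418 and 370 with median-of-ratios scaling. The exact tests of 4 mice against 4 cannot give a p under 0.0286, and those without control replicates 1 and 3 none under 0.133. The reads behind Hcar1 (2 in control replicate 2) and Ffar2 (31 in control replicate 4) limit the precision of their lowest values. Quantile normalization and limma-voom with the filter gave no value for Hcar1 and Slc16a7.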

Other observations

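Values of some relatives of these genes follow. They were named after their values were seen, and none passed the adjusted threshold. Sucnr1, the receptor of succinate, had 1.76, 1.30, 3.48 and 0.774 FPKM in propionic acid skin and 0.983, 0.460, 0.383 and 0.651 FPKM in control skin (exact permutation p = 0.0571, limma adjusted p = 0.852 in the fit without a filter). Slc16a9, a transporter linked to carnitine, had 1.16, 1.31, 1.44 and 1.20 FPKM in propionic acid skin and 0.987, 1.01, 0.979 and 0.742 FPKM in control skin, without overlap (limma adjusted p = 0.782). Slc16a11, a transporter linked in humans to type 2 diabetes risk, had 0.965, 0.998, 0.751 and 0.843 FPKM in propionic acid skin and 0.338, 0.702, 0.432 and 0.681 FPKM in control skin (exact permutation p = 0.0286, the smallest possible, and limma adjusted p = 0.852 in the fit without a filter). Embigin (Emb), a relative of basigin that partners Slc16a7, had 72.0, 70.4, 71.6 and 70.2 FPKM in propionic acid skin and 88.8, 72.2, 90.1 and 74.4 FPKM in control skin (exact permutation p = 0.0286, limma adjusted p = 0.841). The 2 high values are again from control replicates 1 and 3. The groups did not overlap, though the lowest control value (72.2) lay just above the highest propionic acid value (72.0). Across the tested genes the groups did not overlap for 3.16%.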
